A study of Homo sapiens with 8 samples.

Results

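Ribosome biogenesis factors of the nucleolus were followed through treatment with imatinib (IM) and OR21 in K562 and KBM5, established human cell lines of chronic myeloid leukaemia. A list of 48 genes that encode nucleolar factors of pre-ribosomal RNA processing and ribosome assembly was taken from knowledge of their function. It was chosen with earlier results of these data known. Each gene was read from the brightest probe set that carries its symbol. Of the 48, 40 had such a probe set, among 17687 genes measured on the arrays. The other 8, namely NOP56, DKC1, WDR43, BOP1, PPAN, GNL3, DDX18 and EBNA1BP2, had none under their symbol in the annotation used here. Of the 40, 25 were above background on all 8 arrays, 13 on some arrays, and NOP2 and RRP12 on none.

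Both lines were treated in 4 ways: with OR21 (100 nM for 3 days) followed by IM (1000 nM) as the combination, with IM alone, with OR21 alone, or with no drug (control). RNA was taken 24 hours after IM was added. IM inhibits BCR-ABL1, the fusion kinase that drives this leukaemia, and the series title calls OR21, there written OR-2100, a demethylating agent. The submitters aimed at changes that only the combination brings. A treatment was measured once in each line, on 1 array, and its repeat-to-repeat spread within a line is unknown.

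Ribosomes are built in the nucleolus, where RNA polymerase I makes a long precursor that is modified, folded and cut into the mature ribosomal RNAs. Box C/D and box H/ACA ribonucleoproteins, guided by small nucleolar RNAs, modify it, the small subunit processome assembles on its first part to give the 40S subunit, and another set of factors assembles the 60S subunit. The genes for these factors are known to be transcribed together in growing cells, and the transcription factor MYC, which binds with MAX to E-box DNA, is known to bind many of their promoters.

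The start sites of several members are shown first, because the genes that fell most with IM include members with and without an E-box there. RefSeq (GRCh38.p14) gave a window of 250 bases before to 50 bases after the start for 41 of the 48 listed genes, and for 35 of the 40 measured ones. The E-box CACGTG, which reads the same on both strands, was present in 16 of the 41 windows (39.0%), against 7.43% of all 27305 windows in the table and 8.69% of the 14250 windows of genes on the arrays. In 15 of the 41 its first base lay between position -20 and position 40 (36.6%), against 1.53% of all windows and 1.80% of those of genes on the arrays. Positions count from 1 at the start site, with no 0, and this range was chosen after the positions were seen. Of the 26 windows of members called lower with IM in both lines (below), 11 held an E-box (42.3%), against 3 of the 9 windows of members that were not (33.3%).

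The next 5 stretches belong to members that fell in both lines. Each runs 5′ to 3′ from 70 bases before the start through the first 30 transcribed bases, with the E-box in capitals. They lie, in GRCh38.p14, at chr2:130342827-130342926 (IMP4, plus strand), chr1:19251735-19251834 (MRTO4, plus strand), chr2:68157818-68157917 (PNO1, plus strand), chr21:44107329-44107428 (PWP2, plus strand), chr22:30591881-30591980 (PES1, minus strand).
IMP4: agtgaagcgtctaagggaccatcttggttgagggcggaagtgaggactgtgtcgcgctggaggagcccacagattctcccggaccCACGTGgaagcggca
MRTO4: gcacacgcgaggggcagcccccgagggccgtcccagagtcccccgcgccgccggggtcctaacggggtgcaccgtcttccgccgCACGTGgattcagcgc
PNO1: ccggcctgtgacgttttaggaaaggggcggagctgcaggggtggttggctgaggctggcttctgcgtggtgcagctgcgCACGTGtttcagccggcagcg
PWP2: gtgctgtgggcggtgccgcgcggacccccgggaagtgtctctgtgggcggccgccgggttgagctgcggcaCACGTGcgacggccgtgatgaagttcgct
PES1: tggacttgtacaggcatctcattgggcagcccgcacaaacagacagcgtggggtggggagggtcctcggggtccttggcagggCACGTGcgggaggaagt

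An E-box near the start also stood in members that were not called with IM in both lines. Among them were FBL, at chr19:39846350-39846449 on the minus strand, and NOP10, at chr15:34343107-34343206 on the minus strand, shown in the same way.
FBL: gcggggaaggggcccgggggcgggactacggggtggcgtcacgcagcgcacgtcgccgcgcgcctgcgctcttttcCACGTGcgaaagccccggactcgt
NOP10: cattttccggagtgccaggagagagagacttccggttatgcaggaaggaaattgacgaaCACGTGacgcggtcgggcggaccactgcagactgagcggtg

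The largest fall, that of NOP16, and that of DDX21 came from genes with no E-box in the window. Both windows held the core CCGGAAG, which ETS family factors are known to bind, and which was searched on both strands. It stood in 13 of the 41 windows (31.7%), against 10.7% of all windows and 14.3% of those of genes on the arrays, and in no member window did it overlap an E-box. Of the 26 windows of members called lower with IM in both lines 10 held it (38.5%), against 3 of the 9 of members that were not (33.3%). LYAR, UTP15 and WDR12 were among the members called lower whose windows held neither motif. The stretches, from chr5:176388569-176388668 (NOP16, minus strand) and chr10:68956100-68956199 (DDX21, plus strand), have the core in capitals, and in NOP16 2 copies on opposite strands overlap. These matches describe the letters of the windows, and no binding was measured.
NOP16: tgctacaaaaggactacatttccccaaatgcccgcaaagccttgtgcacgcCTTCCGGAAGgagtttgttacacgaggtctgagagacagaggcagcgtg
DDX21: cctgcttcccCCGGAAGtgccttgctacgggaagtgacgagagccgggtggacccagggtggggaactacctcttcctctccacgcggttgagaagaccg

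The arrays differed little in median intensity and more in background. The median intensity over all probe sets was 77.8 to 83.3. Background, taken as the 95th percentile of 612 negative control probe sets, was 161 (K562 control) to 263 (KBM5 control). From 5874 (KBM5 control) to 7083 (K562 OR21) genes were above it. The marker genes went with the labels: of 6 measured erythroid markers 5 were above background on all K562 arrays and none on all KBM5 arrays, and of 7 measured myeloid markers 5 were above it on all KBM5 arrays and 1, LYZ, on all K562 arrays. The 4 measured T cell markers were below background on every array, as were 3 of the 4 measured B cell markers. Of the 4 epithelial markers EPCAM and KRT19 were above it on all K562 arrays, CDH1 and KRT5 on no K562 array, and none on any KBM5 array. Of the 4 measured fibroblast markers COL1A2 was above it on all K562 arrays and some KBM5 arrays, and COL1A1, DCN and LUM on no array.

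With IM, most of the nucleolar factors fell in both lines, across every role in the list. The IM effect is the mean over 4 array pairs (IM minus control and combination minus OR21, in each line) of the log2 intensity difference, tested with limma over all 17687 genes, and a gene was called at a Benjamini-Hochberg adjusted p under 0.05. Of the 40 members 30 were called lower and 0 higher, where 4.87% of all genes were called lower and 2.75% higher. Of the 25 members above background on all 8 arrays 19 were called lower, against 10.8% of the 4660 such genes. The median difference of the members was -1.52, with a range of -3.16 to -0.25, against 0.06 over all genes and -0.08 over the 4660 genes above background on all 8 arrays. All 40 estimates were below 0, against 7680 of all 17687 genes, and 38 members had an unadjusted p under 0.05, against 4262 genes. The arrays measured bulk RNA, so fewer cells with these transcripts and less transcript per cell cannot be told apart.

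The array values themselves showed the same separation. In K562, 38 of the 40 members were lower on both arrays with IM than on both arrays without it, a pattern found in 25.7% of all genes. In KBM5 it was also 38 of 40, against 23.9% of all genes, and 36 members showed it in both lines, against 11.8% of all genes. The exceptions were NPM1 and TBL3 in K562, and NOP10 and NOC2L in KBM5. The deposited values were at least 2-fold lower in both pairs of a line for 28 members in K562, against 4.39% of all genes, and for 27 in KBM5, against 6.20%. Of the 28, 20 were above background on all 4 arrays of the line, and of the 27, 17 were. NOP2 in K562 and UTP15 in KBM5 were above it on none, and for the other dim members the size of the fall is a bound or not exact.

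**Figure D1:**
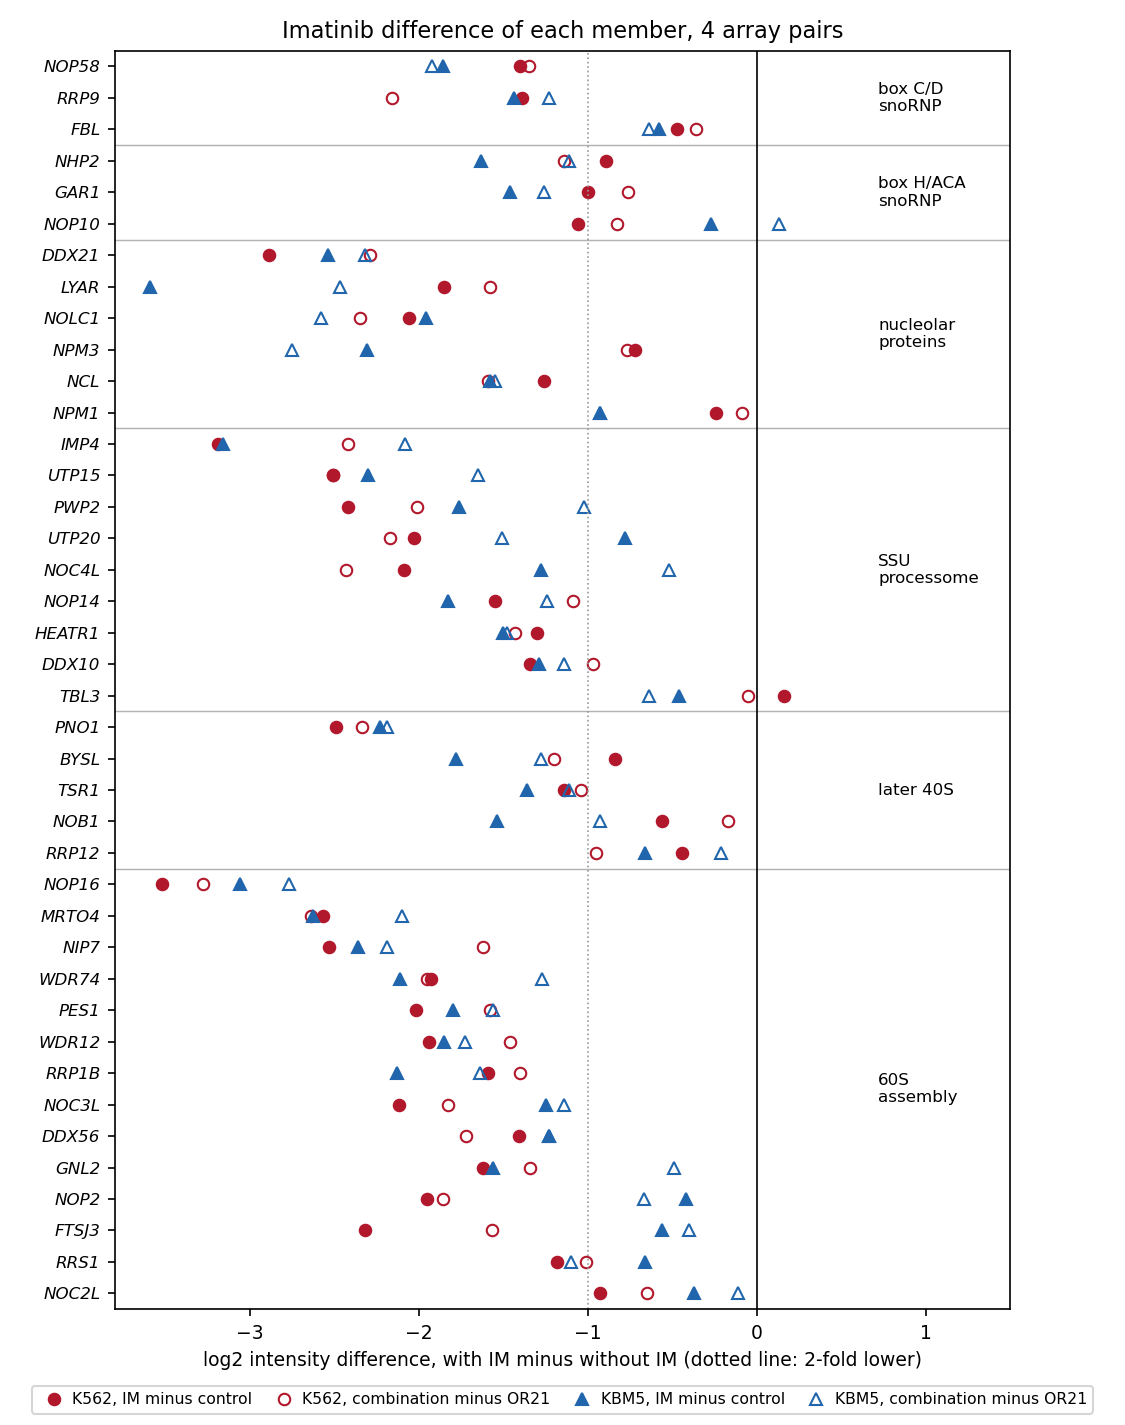
The log2 intensity difference with IM minus without IM is plotted for each of the 40 members (rows, by role) in the 4 array pairs: red circles for K562, blue triangles for KBM5, filled without OR21 and open with it. Nearly all points lie left of 0, between -3.59 and 0.16, and 28 (K562) and 27 (KBM5) members have both points of a line at or left of the dotted line, which marks deposited values 2-fold apart, members below background included.

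The count of calls varied with the model and with which arrays were in it. It was 0 with no term for the line in the model, and it was between 11 and 26 with 1 array left out. It was 11 without KBM5 IM, 13 without KBM5 OR21, 16 without K562 OR21, 17 without the K562 combination, and 19 without the KBM5 control or the KBM5 combination. The 10 members called with every array left out in turn were DDX21, IMP4, MRTO4, NIP7, NOLC1, NOP16, PES1, PNO1, UTP15 and WDR12. For counts with an array left out, here and below, no share of all genes is given. They do not set the members apart from other genes. The lineage markers differed with IM as well. The summed intensity of the 6 erythroid markers in K562 was 497214 with the combination and 486642 with IM, against 213322 with OR21 and 73225 in the control. That of the 7 myeloid markers in KBM5 was 321739 and 346552, against 132983 and 66440. The part of this change in the result was not tested.

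Among the box C/D proteins, which carry the methyltransferase that adds methyl groups to ribose in ribosomal RNA, 2 of 3 measured members fell. NOP58, a core protein of these particles, read 3816 (combination) and 3713 (IM) in K562 cells with IM, against 9731 (OR21) and 9775 (control) without it. In KBM5 it read 4495 and 4699 with IM, against 17033 and 17100. The 2 groups of arrays lay far apart in both lines, and the fall was 3.10-fold (log2 difference -1.63 ± 0.19 SE, adjusted p = 0.00915). RRP9, a protein of the U3 particle, read 56.0 and 86.8 in K562 cells with IM, against 250 and 228 without it, and 80.8 and 102 in KBM5 cells with IM, against 189 and 278. All 4 IM values were below background, so that the fall is given as at least 1.19-fold (adjusted p = 0.0125). FBL, fibrillarin, the methyltransferase itself, read 17082 and 12707 in K562 cells with IM, against 21920 and 17617, and 16323 and 18541 in KBM5, against 25394 and 27766. Its groups did not overlap in either line, but the difference of -0.51 ± 0.19 SE did not pass the test (adjusted p = 0.166).

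Of the box H/ACA proteins, whose particles convert uridine to pseudouridine, NHP2 and GAR1 fell and NOP10 did not pass the test. NHP2 read 1120 (combination) and 1435 (IM) in K562 cells with IM, against 2475 (OR21) and 2664 (control), and 801 and 687 in KBM5, against 1734 and 2124. GAR1 read 1862 and 1818 in K562, against 3145 and 3626, and 728 and 824 in KBM5, against 1745 and 2269. Their falls were 2.29-fold for NHP2 (adjusted p = 0.0194) and 2.17-fold for GAR1 (adjusted p = 0.0217), with no overlap of groups in either line. NOP10, the smallest core protein, read 18491 and 18528 in K562, against 32805 and 38587, but 26337 and 18360 in KBM5, against 24075 and 22087, where the groups overlapped. Its difference was -0.51 ± 0.25 SE over both lines (adjusted p = 0.273). Fitted with separate terms for each line (below), it was not called in KBM5 (-0.07, adjusted p = 0.896) and called lower in K562 (-0.94, adjusted p = 0.0265). The difference between the lines did not pass the test (0.87, adjusted p = 0.147).

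Of the 6 nucleolar phosphoproteins, chaperones and helicases, 4 fell: DDX21, LYAR, NOLC1 and NCL. DDX21, an RNA helicase of early ribosomal RNA synthesis and processing, read 3369 (combination) and 2392 (IM) in K562 cells with IM, against 16418 (OR21) and 17733 (control), and 1293 and 1351 in KBM5, against 6457 and 7850. Its fall of 5.69-fold (-2.51 ± 0.18 SE, adjusted p = 0.00463) was -2.43 in KBM5 and -2.59 in K562, a difference that did not pass the test (adjusted p = 0.849). LYAR, a zinc finger protein of the nucleolus, read 1647 and 1269 in K562, against 4921 and 4577, and 659 and 344 in KBM5, against 3643 and 4125. It fell 5.17-fold (-2.37 ± 0.31 SE, adjusted p = 0.0119). The KBM5 fall (-3.03) was the larger in size, but the difference from K562 (-1.71) did not pass the test (-1.31 ± 0.41 SE, adjusted p = 0.0741). NOLC1, which chaperones small nucleolar ribonucleoproteins, fell 4.71-fold (adjusted p = 0.00507), and NCL, nucleolin, fell 2.82-fold (adjusted p = 0.00896). NPM1, nucleophosmin, an abundant histone and ribosome chaperone, read 47390 and 39986 in K562 cells with IM, against 50269 and 47343, with overlap, and 13359 and 14688 in KBM5, against 25481 and 28072, without overlap. Over both lines its difference was -0.55 ± 0.23 SE (adjusted p = 0.199). Fitted by line it was called lower in KBM5 (-0.93, adjusted p = 0.0148) and not in K562 (-0.16, adjusted p = 0.716), a difference that did not pass the test (-0.77, adjusted p = 0.186).

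Of the 9 measured proteins of the small subunit processome, which binds the 5′ part of the precursor and holds the U3 RNA, 8 fell, with a median of -1.58 over the 9. IMP4, part of the MPP10 complex that helps U3 to pair with the precursor, read 1095 (combination) and 697 (IM) in K562 cells with IM, against 5867 (OR21) and 6345 (control), and 920 and 417 in KBM5, against 3888 and 3722. The fall was 6.55-fold (-2.71 ± 0.18 SE, adjusted p = 0.00463), and in each line the combination array was the higher of the 2 arrays with IM. UTP15, of the subcomplex that joins the precursor first, read 103 and 91.5 in K562, against 584 and 521, and 53.9 and 34.5 in KBM5, against 169 and 170. Only its K562 arrays without IM were above background, and the fall was at least 3.00-fold in K562. Over both lines it was called (adjusted p = 0.00565), with a bound of 1.55-fold. That bound is not exact, since the KBM5 arrays without IM were below background. UTP20, a large scaffold protein, was called with a bound of 1.73-fold (adjusted p = 0.0192), not exact since its KBM5 control was below background. HEATR1, a large scaffold of the same subcomplex as UTP15, fell 2.69-fold (adjusted p = 0.0206). TBL3, a WD-repeat protein of the UTP-B subcomplex, was the exception: it read 524 and 584 in K562 cells with IM, against 541 and 521, and 298 and 390 in KBM5, against 465 and 537. Its difference of -0.25 ± 0.20 SE was the smallest of the 40 (adjusted p = 0.531).

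Of the 5 factors of later 40S maturation, PNO1, BYSL and TSR1 fell. PNO1, which shields the 3′ end of the 18S precursor until NOB1 cuts it, read 144 (combination) and 139 (IM) in K562 cells with IM, against 729 (OR21) and 781 (control), and 131 and 109 in KBM5, against 596 and 510. No IM array was above background, and the fall was at least 3.27-fold (adjusted p = 0.00486). BYSL, bystin, read 1397 and 1341 in K562, against 3220 and 2400, and 506 and 460 in KBM5, against 1230 and 1576, a fall of 2.42-fold (adjusted p = 0.0217). RRP12, an export factor, was below background on every array, with 41.4 and 39.2 in K562 cells with IM, against 80.0 and 53.3, and 51.5 and 42.2 in KBM5, against 59.6 and 66.5. No fold is given for it, and it was not called (adjusted p = 0.141). NOB1, the nuclease itself, was not called over both lines either (-0.80 ± 0.25 SE, adjusted p = 0.106). By line it was called lower in KBM5 (-1.24, adjusted p = 0.00574) and not in K562 (-0.37, adjusted p = 0.411), and again the difference did not pass the test (-0.87, adjusted p = 0.176).

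Of the 14 measured factors of 60S assembly 11 fell, with a median of -1.64. NOP16 read 525 (combination) and 464 (IM) in K562 cells with IM, against 5099 (OR21) and 5340 (control), and 398 and 193 in KBM5, against 2705 and 1610. With a fall of 8.92-fold (-3.16 ± 0.25 SE, adjusted p = 0.00507) it changed most of the 40, and its KBM5 IM value was below background. MRTO4, a relative of the stalk protein P0 that holds its place on the early 60S particle, read 234 and 217 in K562, against 1455 and 1287, and 133 and 116 in KBM5, against 568 and 720. It fell 5.60-fold (-2.48 ± 0.18 SE, adjusted p = 0.00463), with both KBM5 IM values below background, so that the fall in KBM5 is at least 3.03-fold. NIP7, a small RNA-binding assembly factor, read 2048 and 1304 in K562, against 6298 and 7504, and 770 and 844 in KBM5, against 3514 and 4334, a fall of 4.51-fold (adjusted p = 0.00565). WDR74, a WD-repeat assembly factor, read 843 and 915 in K562, against 3250 and 3489, and 634 and 425 in KBM5, against 1531 and 1830, a fall of 3.52-fold (adjusted p = 0.00794). PES1 and WDR12, which form a complex with BOP1, both had a difference of -1.74 and were called. NOC2L was the weakest, with 1539 and 1423 in K562 cells with IM, against 2421 and 2704, and 1750 and 2088 in KBM5, against 1894 and 2705, where the groups overlapped. Its difference was -0.52 ± 0.20 SE (adjusted p = 0.181).

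**Figure D2:**
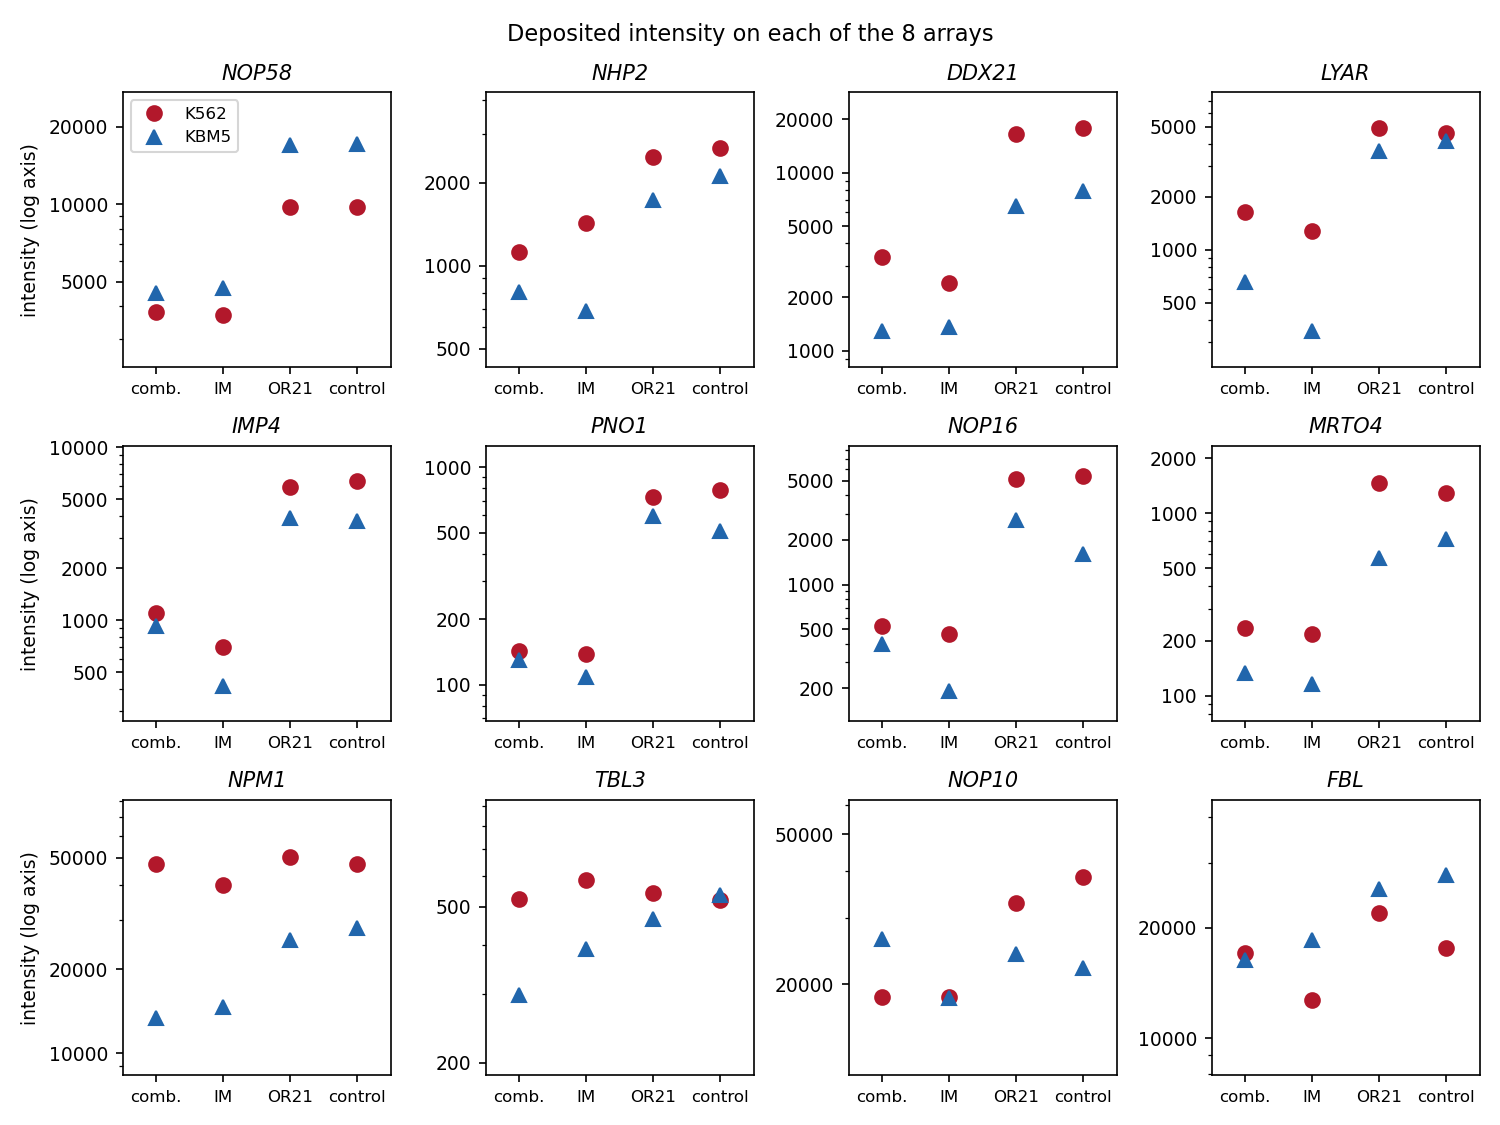
The deposited intensity of 12 members is shown on each of the 8 arrays (log axis, one panel a gene), with red circles for K562 and blue triangles for KBM5. The upper 8 panels are members that fell in both lines, such as NOP16 with 193 to 525 on arrays with IM and 1610 to 5340 on arrays without, and the lower 4 are members that were not called over both lines.

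The fall was set beside other genes of the pathway. Of 89 other measured ribosome biogenesis factors, from a list of 93, 51 were called lower and 0 higher, with a median of -1.08, beside the 4.87% and 2.75% of all genes given above. By the fitted difference the largest were WDR3, MAK16, NOL6 and RRP7A. WDR3, a processome protein, fell 5.45-fold (adjusted p = 0.00463), and MAK16, a 60S factor, fell 5.33-fold (adjusted p = 0.0102). NOL6, a processome protein, was below background on all 4 IM arrays and in the KBM5 control. Its bound of 2.07-fold is therefore not exact (adjusted p = 0.0242). RRP7A, a further processome protein, fell 4.35-fold (adjusted p = 0.00956) with 2 of its 4 IM values above background. Of 17 measured subunits and factors of RNA polymerase I 9 were called lower, with a median of -0.90. Of 46 measured cytosolic ribosomal proteins, the products that these factors assemble, 1 was called lower (2.17%) and 0 higher, with a median of 0.23. The share called lower was 4.87% over all genes and 10.8% over the genes above background on all 8 arrays. MYC read 2768 (combination) and 1918 (IM) in K562 cells with IM, against 11202 (OR21) and 12058 (control), and 3178 and 4122 in KBM5, against 15088 and 20650. It fell 4.96-fold (-2.31 ± 0.21 SE, adjusted p = 0.00565), and its part in the change of the members was not tested.

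**Figure D3:**
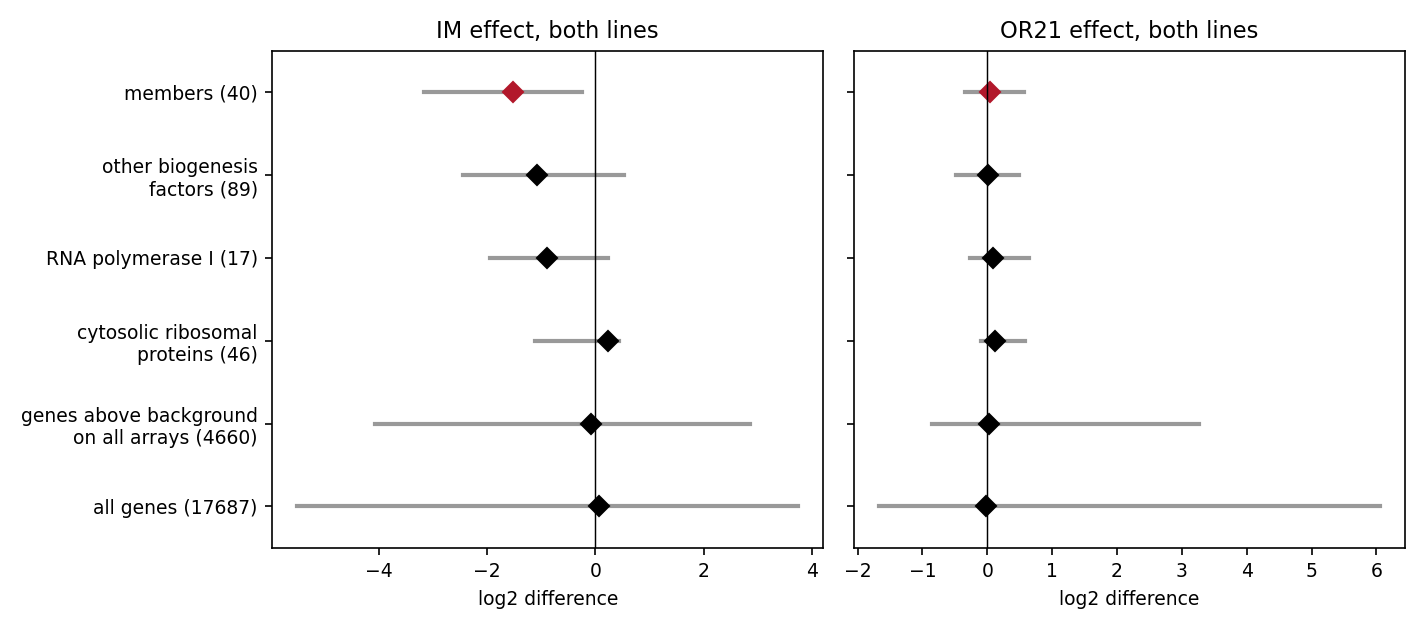
The median (diamond) and the lowest to highest value (grey bar) of the log2 difference are shown for the 40 members, 3 further lists of the pathway, the 4660 genes above background on all 8 arrays and all 17687 genes, for the IM effect (left) and the OR21 effect (right) in both lines. The members' median is -1.52 with IM and 0.04 with OR21, and that of the ribosomal proteins is 0.23 with IM.

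Within each line the 2 disjoint pairs, with and without OR21, served as repeats. The model held a baseline, an OR21 term and an IM term for each line. It was fitted to all 8 arrays with a spread shared by the lines, so each line's p-values rest on both. In K562, 33 members were called lower and 0 higher (8.05% of all genes lower, 5.34% higher), with a median of -1.53. In KBM5 it was also 33 lower and 0 higher (10.6% and 10.8% of all genes), with a median of -1.38. Of the 25 members above background on all 8 arrays 20 were called lower in K562, against 15.0% of the 4660 such genes. In KBM5 21 of them were, against 21.8%. NOP2 in K562 and UTP15 in KBM5 were called while below background on all 4 arrays of the line, so no fold is given for them there. These counts share their arrays with the count over both lines. Without 1 K562 array, the K562 count was 15 (control or IM left out) or 17 (OR21 or combination left out), and the KBM5 count was 28 to 32 with any 1 array left out. Across the 40 members the 2 lines' effects had a Pearson correlation of 0.59 and a Spearman correlation of 0.52, which describe genes measured on the same arrays and not independent repeats.

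The size of the fall differed between KBM5 and K562 for 4 members, 1 with a larger fall in KBM5 and 3 with a smaller one, where 10.2% of all genes were called in this difference, 4.90% lower and 5.25% higher. The members' share is near that of all genes, and is no result about the members. NPM3, a relative of nucleophosmin, read 104 (combination) and 175 (IM) in KBM5 cells with IM, against 699 (OR21) and 868 (control), and 815 and 861 in K562 cells with IM, against 1388 and 1414. The fall was at least 3.69-fold in KBM5 (adjusted p = 5.51e-05), whereas in K562 the ratio was 1.67-fold lower and not called (adjusted p = 0.0694), and the difference was -1.79 ± 0.34 SE (adjusted p = 0.00806), of inexact size because both KBM5 values with IM were below background. NOC4L, which works with NOP14 in the processome, read 345 and 243 in KBM5 cells with IM, against 495 and 589, and 528 and 458 in K562 cells with IM, against 2839 and 1953. It fell 1.87-fold in KBM5 and 4.79-fold in K562 (difference 1.36 ± 0.37 SE, adjusted p = 0.0446). With quantile normalization the NOC4L difference was no longer called (adjusted p = 0.0568).

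The other 2 were dim. FTSJ3, whose yeast relative Spb1 methylates the 60S precursor, read 85.6 and 68.4 in KBM5 cells with IM, against 113 and 101, all below background, and 63.5 and 38.4 in K562 cells with IM, against 189 and 191. It was called lower in K562, by at least 1.03-fold (adjusted p = 0.000922), and the difference was called (adjusted p = 0.0295), but with a bound in K562 and no size in KBM5 its estimate of 1.47 ± 0.36 SE has no measured size. NOP2, a cytosine methyltransferase of 28S ribosomal RNA, read 83.3 and 77.0 in KBM5 cells with IM, against 133 and 103, and 30.8 and 28.6 in K562 cells with IM, against 112 and 110. None of its arrays was above background, so the same holds for its difference of 1.36 ± 0.33 SE (adjusted p = 0.0267). No member was called when any 1 K562 array was left out. Of the 4, 3 were still called without the KBM5 control or KBM5 IM, and 2 without KBM5 OR21 or the KBM5 combination.

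**Figure D4:**
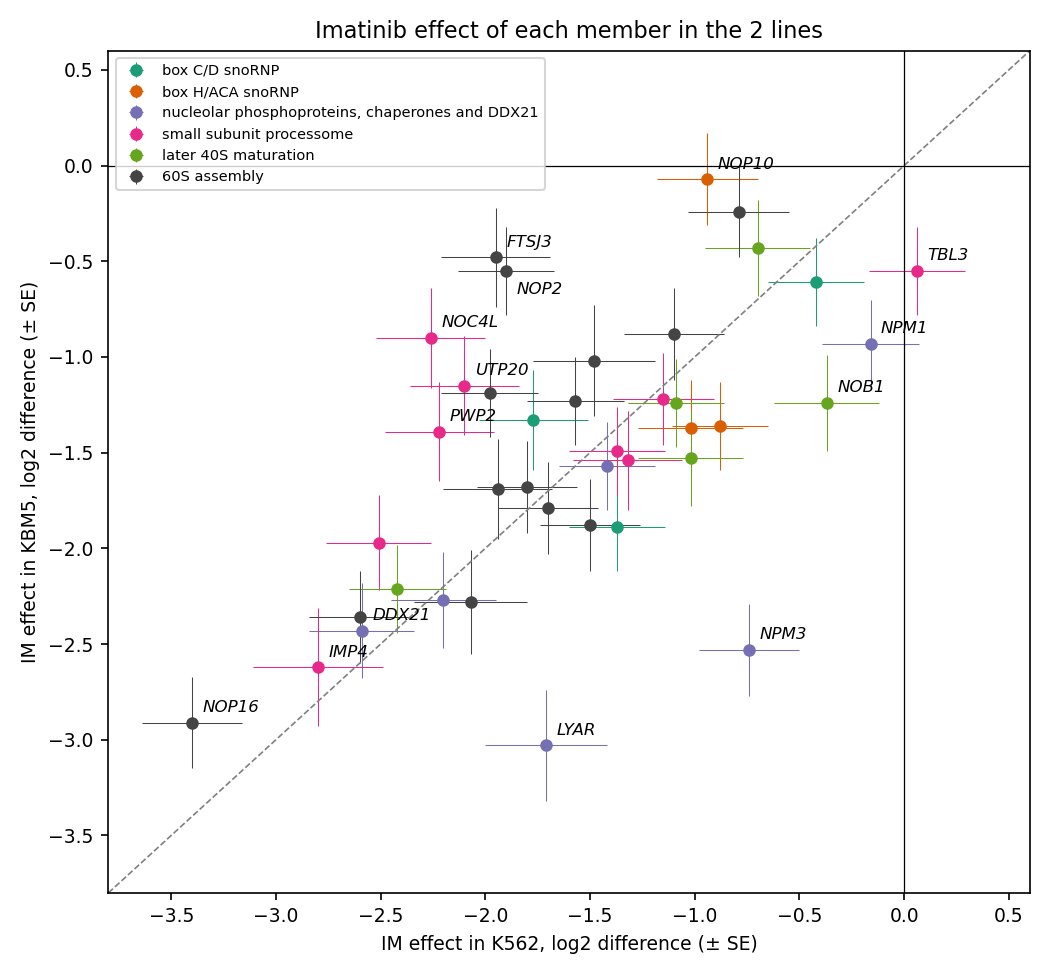
The IM effect of each of the 40 members in KBM5 (vertical axis) is plotted against that in K562 (horizontal axis), as log2 differences with their standard errors, coloured by role, and the dashed line marks equal effects. NPM3 lies far below the line (-2.53 in KBM5 and -0.74 in K562), and NOC4L, FTSJ3 and NOP2 lie above it.

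OR21 was compared with its absence over the 4 pairs OR21 minus control and combination minus IM. Over both lines no member was called, nor was any of the 17687 genes (0%) by limma, and at an unadjusted p under 0.05 there were 3 members and 622 genes. The members' median OR21 effect was 0.04, with a range of -0.35 to 0.57. PWP2, a scaffold of the UTP-B subcomplex, had the largest estimate. It read 464 (combination) and 1872 (OR21) in K562 cells with OR21, against 260 (IM) and 1394 (control), and 172 and 350 in KBM5, against 93.6 and 317. It was higher in all 4 pairs, but did not pass the test (0.57 ± 0.23 SE, adjusted p = 0.999), and its KBM5 combination and IM values were below background. GNL2, a GTPase of 60S assembly, read 2511 and 6340 in K562 cells with OR21, against 1799 and 5539, and 1772 and 2495 in KBM5, against 778 and 2288 (0.50 ± 0.21 SE, adjusted p = 0.999). NOP16, with the array values given above, had an estimate of 0.48 ± 0.25 SE (adjusted p = 0.999). In the model with terms for each line no member was called in K562 or in KBM5. Of all genes 0% were called lower and 0.0905% higher in K562, and 0.0565% and 0.486% in KBM5. The sums of lineage markers were higher with OR21 alone too, at 213322 against 73225 in the control for erythroid markers in K562 and at 132983 against 66440 for myeloid markers in KBM5.

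The combination was the treatment of interest to the study. Against control it had 5 members called lower and 0 higher (0.136% and 0.0622% of all genes), with a median of -1.39. All 40 estimates were below 0, against 8635 of all 17687 genes. The 5 were NOLC1 (5.82-fold lower), DDX21 (5.65-fold), MRTO4 (5.47-fold), IMP4 (4.84-fold) and PNO1 (at least 3.35-fold, since it was below background with the combination in both lines). MRTO4 was above background on 1 of its 2 combination arrays, so its fold is not exact. Their adjusted p-values were 0.0412 to 0.0413. None was called when any 1 array was left out, or with log2(value + 16), or with no term for the line, while with an intensity trend and robust moderation 8 were. At an unadjusted p under 0.05 there were 34 members and 2806 genes. Each treatment has 1 array a line in this comparison, and it shares its arrays with the IM effect.

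Against IM alone, the combination had no member called, nor any of all genes (0%) by limma, with 3 members and 605 genes at an unadjusted p under 0.05 and a median of 0.15 for the members. IMP4 had the largest estimate, with 1095 (combination) against 697 (IM) in K562 and 920 against 417 in KBM5 (0.90 ± 0.25 SE, adjusted p = 1.00). PWP2 read 464 against 260 in K562, and 172 against 93.6 in KBM5, where both values were below background, so its estimate of 0.86 ± 0.32 SE is not exact (adjusted p = 1.00). GNL2, above background on all 8 arrays, read 2511 against 1799 in K562 and 1772 against 778 in KBM5 (0.83 ± 0.29 SE, adjusted p = 1.00). The fall with IM was larger with OR21 than without it in 14 of 40 members in K562 and in 9 of 40 in KBM5. No count over all genes is given beside these, so they are no result about the members. The median of the difference, with OR21 minus without, was 0.15 in K562 and 0.22 in KBM5, and was not tested. Across the 40 members the 2 pairs of a line, which share no array, had a Pearson correlation of 0.90 in K562 and 0.84 in KBM5.

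KBM5 and K562 also differed in the level of the members over the 4 matched treatments. In KBM5 18 members were called lower than in K562 and 0 higher, where 17.0% of all genes were lower and 15.0% higher. The members' median was -0.54, against 0.04 over all genes. Of the 25 members above background on all 8 arrays 12 were called lower and 0 higher, against 25.2% of the 4660 such genes lower. PWP2 was called lower in KBM5 (-1.87 ± 0.23 SE, adjusted p = 0.00104), with values between 93.6 and 350 against 260 to 1872 in K562. The size is not exact, since 2 of its 4 KBM5 values were below background. NOB1 read 1445 (combination), 1577 (IM), 2762 (OR21) and 4585 (control) in KBM5, against 7546, 6416, 8515 and 9474 in K562, so every KBM5 array was below every K562 array (-1.77 ± 0.25 SE, adjusted p = 0.00193). NPM3, with the values given above, had a difference of -1.74 ± 0.39 SE (adjusted p = 0.0145), again with 2 of 4 KBM5 values below background. Without treatment in the model 2 members were called, and with quantile normalization 17 were lower and 2 higher.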

How the data were processed

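Total RNA of K562 and KBM5 cells was biotin-labelled and hybridised to expression arrays, per the labels' protocols. The authors deposited a linear intensity for each of 24351 probe sets. Which software, summarization and normalization made them is not given in the sources used here. Gene symbols came from the platform annotation: 17709 probe sets carried 1 symbol, 0 several and 6642 none, which gave 17687 genes, 20 of them with more than 1 probe set. Groups follow the sample titles, and the OR21 dose of the combination was taken from the treatment protocol. The titles also carry a digit, 1 for the K562 control and 2 for the other 7 arrays, whose meaning is not given in the sources used here. No deposited column was left unmapped.

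Log2 of the deposited intensity was analysed without further normalization, with limma 3.58.1 in R 4.3.3. The model of both lines held line and treatment (3 residual degrees of freedom, 3.77 added by moderation), so that the lines served as repeats. The model per line (2 residual degrees of freedom, 8.31 added) used the 2 disjoint pairs of a line as repeats. It was fitted to all 8 arrays, and the lines shared an estimate of the spread. There were 10 contrasts, with Benjamini-Hochberg adjustment across all genes in each, and calls were made at an adjusted p under 0.05. The labels name no separate cultures, so the p-values reflect only how these arrays vary, and precision is limited by their number. The code was checked on simulated data with an equal, independent spread for every gene. That check does not show the error rate on these arrays.

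A value was above background if it exceeded the 95th percentile of the negative controls of its array. Where no array of the dimmer side did, the fold is a bound: the brighter side's mean over the mean of, per array, the higher of the dim value and the lowest value above background. With neither side above it there is no fold, and with only some arrays of a side above it the fold or bound is not exact.

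The members, gene lists, role groups and alternatives were chosen with earlier results of these data known. Values on all arrays are given for the 2 members of each role (4 for 60S assembly) with the largest IM effect in size and the 1 with the smallest, for members whose IM effect was called different between lines, and for the 3 with the largest OR21 and line differences. Of the other biogenesis factors, the 4 with the largest IM effect are named. MYC was added as a known regulator. Further members are named beside the counts they belong to.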

Additional observations from a re-analysis of the deposited data

Results flagged for a closer look

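The IM effect differed between the lines, by limma's test of the difference (KBM5 minus K562, on the log2 scale), for 4 of 40 members, beside 10.2% of all genes. The difference was -1.79 for NPM3 and 1.36 for NOC4L. The estimates for NOP2 (1.36) and FTSJ3 (1.47) have no measured size, since NOP2 was above background on 0 arrays and FTSJ3 on 2 of 8. NPM3 was above it on 6, and NOC4L on all 8.

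For 5 of 40 members (12.5%, beside 12.6% of all genes) both OR21 pairs (OR21 minus control and combination minus IM) had one sign in KBM5 and the other in K562. The difference between the lines was not tested, and the share is near that of all genes. FBL was at -0.13 and -0.18 in KBM5 and at 0.32 and 0.43 in K562, a difference of -0.53 between the lines' mean effects. HEATR1 was at -0.70 and -0.68 in KBM5 and at 0.28 and 0.15 in K562, a difference of -0.90. The difference was -0.30 for NPM1 and -0.32 for DDX10, in the same direction. It was 0.44 for NOP10, the other way round, where the combination and IM values in K562 were nearly equal (18491 and 18528). None of the 5 was called for OR21 in either line.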

How the results depend on the processing

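The 634 values recomputed under the alternatives were counts, which have no direction, and results of single genes. Of the gene results 0 changed direction, 399 stayed the same and 89 were no longer called. The count of members called lower with IM in both lines (30) was 0 with no line in the model and 11 to 26 with 1 array left out, while the 30 calls were all kept with quantile normalization (median -1.41), the brighter genes alone, an intensity trend with robust moderation, and the mean of probe sets, and 29 of them with log2(value + 16). The count for the combination against control (5) was 8 with the intensity trend and robust moderation, 0 with log2(value + 16), 0 with no line in the model, and 0 to 0 with 1 array left out. KBM5 against K562 (18) had 2 calls with no treatment in the model and 14 to 17 with 1 array left out. The IM effect had 15 to 35 calls in K562 and 28 to 32 in KBM5 with 1 array left out, of 33 in each. The 4 differences between lines became 7 with the intensity trend and robust moderation, and 0 to 3 with 1 array left out. Members at least 2-fold lower in both pairs of a line (28 in K562, 27 in KBM5) were 14 and 13 at 3-fold, 35 and 31 at 1.5-fold, and 25 and 27 with quantile normalization. For these fold counts the share of all genes is given only for 2-fold in the deposited values. For the counts of calls under the alternatives it is not given, so they do not set the members apart from other genes. The OR21 effect and the combination against IM had 0 member calls under every alternative run. With 1 array left out, the lone remaining array of its treatment was assumed to vary like the others. Fewer arrays in the fit, or the difference between lines counted as error, are the construction of these alternatives. For the other changes the cause was not tested. Quantile normalization moved the median gene by at most 0.05 on the log2 scale in any contrast. The members' median moved from -1.53 to -1.40 for IM in K562, and from -1.38 to -1.41 for IM in KBM5. It moved from 0.14 to 0.00 for the difference between these, and from -0.54 to -0.42 for KBM5 against K562.

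No pairing by replicate number was possible, because each line and treatment had 1 array. The arrays of a line were matched through the line term of the model. Members near background, such as RRP9, UTP15, FTSJ3 and NOP2, have bounds or no fold, and NOP2 and RRP12 could not be separated from the negative controls on any array. The deposited values were taken as comparable between arrays, since how they were normalized is not given in the sources used here. A culture, a hybridisation and a treatment cannot be told apart with 1 array each.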
